A study of Mus musculus with 12 samples.

Results

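Haematopoietic stem cell identity genes are genes used to tell the stem cells of the blood from the progenitors they give rise to. A set of 34 such genes was taken by symbol from a list of markers and regulators of these cells, and all 34 were among the 24054 genes of every table. By role they comprise 11 transcription factors and chromatin proteins, 3 genes of antigens used in the sort, 8 other surface proteins, 3 secreted proteins and 9 genes of signalling, channels and enzymes. RNA was sequenced from mouse fetal liver cells at E13.5 in 12 libraries, 3 for each of 4 groups. LT-HSC mutants were Setdb1 p/p;vav-cre and were sorted as LSK cells positive for CD150 and negative for CD48, as were LT-HSC controls, of which control 1 was Setdb1 +/p;+/+ and controls 2 and 3 were Setdb1 +/p;vav-cre. MPP mutants were Setdb1 p/p;vav-cre and were sorted as LSK cells negative for CD150 and positive for CD48, as were MPP controls, of which controls 1 and 2 were Setdb1 +/p;+/+ and control 3 was Setdb1 +/p;vav-cre. All 12 genotypes thus hold at least 1 p allele, which the labels do not define, and the Cre transgene is driven by vav, a gene of blood cells. Setdb1 encodes a histone H3 lysine 9 methyltransferase. LT-HSC stands for long-term haematopoietic stem cells and MPP for multipotent progenitors.

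In the fetal liver, the stem cells of the blood expand in number. Their identity rests on a network of transcription factors, among them Runx1, the ETS factors Erg and Fli1, the homeobox factor Meis1 and the zinc finger factors Mecom and Prdm16. Surface proteins such as CD150 (encoded by Slamf1), EPCR (Procr) and ESAM mark the stem cells, and several of these proteins are shared with endothelium, from which the stem cells arise in the embryo. As cells become multipotent progenitors, CD150 is lost and CD48 is gained.

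Each library summed to between 10119416 and 14113198 expected counts. Setdb1, on chromosome 3 from 95323525 to 95357202 (GRCm38), was present in every library, at 66.5 to 80.8 CPM in LT-HSC mutants, 73.5 to 108 CPM in LT-HSC controls, 87.0 to 117 CPM in MPP mutants and 87.9 to 140.2 CPM in MPP controls. CPM are read counts scaled to a common library size, corrected by the TMM method. These values sum over the whole gene and do not check the genotype labels where the p allele removes only part of it. Kit, the defining gene of the K in LSK, stood between 819 and 1081 CPM in all 12 libraries. Controls of a group that differ in genotype came from different fetuses. The labels do not say that libraries of the same genotype did. The p-values thus measure only how far these libraries spread, and among libraries of the same genotype that spread may be technical.

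Promoter sequences are shown for 4 members whose level differed between MPP mutants and MPP controls, Meis1, Tek and Emcn with lower levels in mutants and Mllt3 with a higher level. Each is the 250 bases before the transcript start on the gene's own strand, from RefSeq's table for GRCm38.p6, which held 24 of the 34 members. Capitals mark matches, on either strand, to the ETS letters GGAAGT, the RUNX letters TGTGGT, the MEIS letters TGACAG or the GATA letters AGATAA, which are sites bound by factor families with members in the set or close to it. The Meis1 window (chr11:19018970-19019219, minus strand) held 1 ETS and 1 RUNX match, and the Tek window (chr4:94739039-94739288, plus strand) held 1 MEIS match. None of these 4 exact runs of letters was in the Emcn window (chr3:137340828-137341077, plus strand) or the Mllt3 window (chr4:88033408-88033657, minus strand). Other forms of the sites were not searched.
Meis1: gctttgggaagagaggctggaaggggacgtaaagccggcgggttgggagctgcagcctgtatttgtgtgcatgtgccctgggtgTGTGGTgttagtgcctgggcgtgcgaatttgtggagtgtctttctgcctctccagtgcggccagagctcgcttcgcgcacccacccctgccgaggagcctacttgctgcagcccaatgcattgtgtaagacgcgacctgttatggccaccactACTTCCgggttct
Tek: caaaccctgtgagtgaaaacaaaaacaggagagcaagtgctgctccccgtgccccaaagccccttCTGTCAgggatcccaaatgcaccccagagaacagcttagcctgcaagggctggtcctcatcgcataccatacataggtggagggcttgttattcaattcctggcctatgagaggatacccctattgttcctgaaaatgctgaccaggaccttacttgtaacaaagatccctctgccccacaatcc
Emcn: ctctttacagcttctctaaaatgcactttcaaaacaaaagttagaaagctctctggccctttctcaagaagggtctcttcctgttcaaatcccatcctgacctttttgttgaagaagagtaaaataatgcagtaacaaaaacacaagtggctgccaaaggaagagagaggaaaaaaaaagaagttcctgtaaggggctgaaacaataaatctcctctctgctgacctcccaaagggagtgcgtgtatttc
Mllt3: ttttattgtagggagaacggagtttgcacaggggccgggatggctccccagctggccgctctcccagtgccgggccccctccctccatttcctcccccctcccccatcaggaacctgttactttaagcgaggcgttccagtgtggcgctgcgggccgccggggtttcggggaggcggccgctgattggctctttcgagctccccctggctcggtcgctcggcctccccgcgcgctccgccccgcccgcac

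The windows differed in base composition, with 40.8% G or C in Emcn, 51.2% in Tek, 59.6% in Meis1 and 69.2% in Mllt3, against a median of 52.0% over the 27025 windows of the table. CG dinucleotides numbered 1 in Emcn, 2 in Tek, 13 in Meis1 and 23 in Mllt3. The ETS letters were in 3 of the 24 member windows (12.5%), against 20.0% of all windows. The RUNX letters were in 2 member windows (8.3%, against 14.1% of all windows), the MEIS letters in 3 (12.5%, against 15.9%) and the GATA letters in 0 (against 10.2%). A match of letters is a description of the window and says nothing about binding.

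Levels of different genes were compared in TPM, the deposited values per transcript length. Among the 34 genes, the tetraspanin gene Cd63 was the highest in LT-HSC mutants at 395 ± 104 TPM, as it was in LT-HSC controls at 450.0 ± 31.8 TPM (SD, n = 3). Second in both LT-HSC groups was Txnip, which encodes an inhibitor of thioredoxin, at 364 ± 89.9 TPM in mutants and 394 ± 44.9 TPM in controls, a step from Cd63 that is smaller than the SDs in mutants and larger than them in controls. In MPP the order was led by Cd34, a sialomucin of stem and progenitor cells, at 480 ± 81.1 TPM in mutants and 711 ± 22.9 TPM in controls, followed by Cd48 at 256 ± 40.6 TPM in mutants and 374 ± 44.5 TPM in controls. Meis1 was the most abundant of the transcription factors in LT-HSC, at 171 ± 29.6 TPM in mutants and 189 ± 29.0 TPM in controls. Tcf15, a basic helix-loop-helix factor, was the least abundant of them, at 2.90 ± 2.08 TPM in LT-HSC mutants and 3.65 ± 2.45 TPM in LT-HSC controls (SD, n = 3).

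Clec1a, a C-type lectin gene of endothelium, had almost no reads, with 0, 1 and 3 counts in LT-HSC mutants 1 to 3, 8, 3 and 0 counts in LT-HSC controls 1 to 3, and 0 counts in all 6 MPP libraries. It passed the filter on low counts in no comparison. Sult1a1, a sulfotransferase gene, had 2, 2 and 0 counts in MPP mutants 1 to 3, against 13, 8 and 11 counts in MPP controls 1 to 3, and like Tcf15 was not tested between the MPP groups. Exons of another gene on the opposite strand overlap 10 of the 34 members in GENCODE M21 (GRCm38), and the library kit does not keep the strand. Cd34 (opposite Gm16897) and Txnip (opposite Gm15441) are among these and had fractional counts in all 12 libraries, so the size of their changes is uncertain. Meis1 (opposite Gm16140), Runx1 (opposite Gm26626) and Tbxas1 (opposite Gm42962) are also among these and had whole counts. Reads from the opposite strand could not be told apart in them either.

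**Figure D1:**
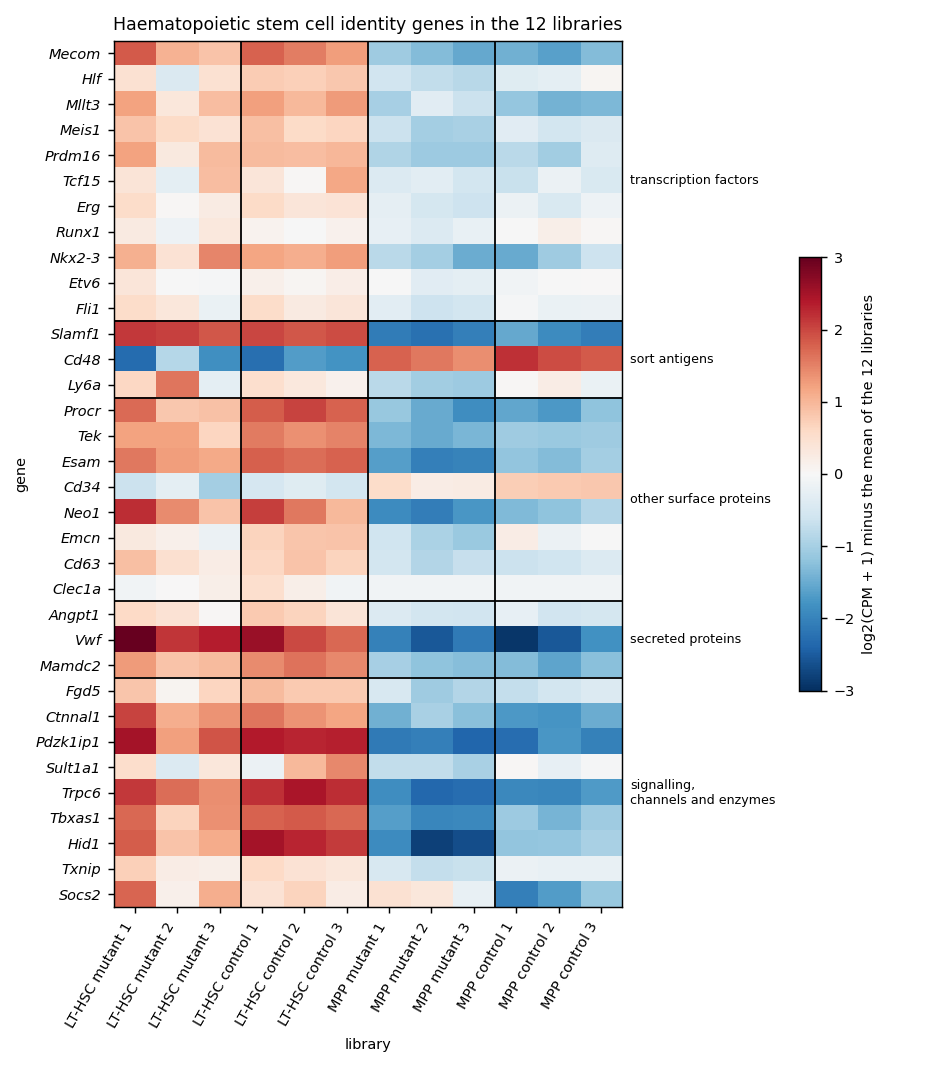
Levels of the 34 genes (rows, by role) in the 12 libraries (columns, by group), as log2(CPM + 1) minus the gene's mean over the 12 libraries, on a scale cut at 3 in either direction. Most genes are higher in the 6 LT-HSC libraries than in the 6 MPP libraries, Cd48 and Cd34 are lower there, and Socs2 is higher in the 3 MPP mutants than in the 3 MPP controls.

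The first comparison asked which identity genes differed between MPP mutants and MPP controls. In mutant MPP, 14 genes fell and 3 rose by edgeR's quasi-likelihood test with Benjamini-Hochberg adjustment over all 12392 genes tested (adjusted p under 0.05), among 31 members tested. Those that fell included the sort antigen gene Ly6a, the endothelium-shared surface genes Emcn and Esam, and the transcription factors Hlf, Runx1, Meis1 and Fli1. Those that rose were Socs2, Mllt3 and Ctnnal1. The 14 lower genes are 45.2% of the members tested, against 18.5% called lower among all genes, and the 3 higher are 9.68%, against 16.5% of all genes (35% called in either direction). The members were chosen with earlier results of these data known, so shares of members here and in LT-HSC describe the set and are no test of it. The called genes were also those in which all mutants lay on one side of all controls, which held lower for 24.4% and higher for 26.6% of all genes. The median log2 fold of mutants over controls was -0.38 over the members tested and -0.01 over all genes tested. In sorted bulk samples, fewer cells of a type and less RNA per cell cannot be told apart.

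Of the 10 transcription factors tested in MPP, 4 fell, 1 rose and 5 were not called. Hlf, a PAR-type leucine zipper factor of stem cells, stood at 148, 131 and 123 CPM in MPP mutants 1 to 3, against 171, 179.7 and 231 CPM in MPP controls 1 to 3 (log2 fold change -0.56, SE 0.122, adjusted p = 0.00478). Runx1, required for the first stem cells to form, stood at 85.0, 75.8 and 85.7 CPM in the mutants, against 100.3, 114 and 103 CPM in the controls (-0.39, SE 0.093, adjusted p = 0.00746). Every mutant library was below every control library for both genes. Meis1, a homeobox partner of HOX proteins, stood at 133, 102 and 105 CPM in the mutants, against 163, 140.5 and 153 CPM in the controls (-0.45, SE 0.116, adjusted p = 0.011). Fli1, an ETS factor of blood and endothelium, stood at 144, 117 and 123 CPM in the mutants, against 176, 158 and 158 CPM in the controls (-0.38, SE 0.102, adjusted p = 0.0142). For Meis1 and Fli1 too the groups were apart, with mutant 1 the nearest to the controls. Values per library were to be given for the 10 lower genes of smallest p, and Meis1, Fli1 and Tek, which rank below these, were added after their values were seen.

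Mllt3, known as AF9 and part of a complex that promotes transcription elongation, went the other way. Its levels were 54.6, 86.6 and 69.9 CPM in MPP mutants 1 to 3, against 48.4, 40.4 and 42.9 CPM in MPP controls 1 to 3 (log2 fold change 0.65, SE 0.153, adjusted p = 0.00683). All 3 mutants lay above the controls, mutant 1 by the smallest margin. Among the transcription factors not called, Prdm16 averaged 21.1 ± 1.65 CPM in mutants and 26.3 ± 6.40 CPM in controls (adjusted p = 0.141), Erg 25.4 ± 3.22 and 29.6 ± 3.40 CPM (adjusted p = 0.194), Etv6 211 ± 27.0 and 237 ± 9.56 CPM (adjusted p = 0.171), Mecom 33.5 ± 5.45 and 29.8 ± 3.33 CPM (adjusted p = 0.476) and Nkx2-3 7.06 ± 1.85 and 7.33 ± 2.54 CPM (adjusted p = 0.846; SD, n = 3 each).

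All 3 genes of sort antigens were tested. Ly6a encodes Sca-1, the antigen of the S in LSK, and all cells were gated as positive for it. Its level in mutants 1 to 3 was 16.9, 14.3 and 13.7 CPM, against 31.1, 35.2 and 26.3 CPM in controls 1 to 3 (log2 fold change -1.07, SE 0.152, adjusted p = 0.000339), with no overlap. Ly6a belongs to a family of near copies, and its count was fractional in 4 of the 12 libraries. Cd48, for which MPP were gated as positive, stood at 194, 169 and 150.0 CPM in mutants, against 259, 221 and 204 CPM in controls (-0.44, SE 0.12, adjusted p = 0.0148). Slamf1, for which MPP were gated as negative, stood at 1.29, 1.09 and 1.36 CPM in mutants, against 2.39, 1.66 and 1.32 CPM in controls (adjusted p = 0.214). The groups did not overlap for Cd48 and overlapped for Slamf1. Several of these calls were lost when 1 library was left out, with folds still in the same direction. Among all genes, 35% were called in MPP with every library, 22% without MPP mutant 2 and 22.7% without MPP mutant 3. Without MPP mutant 2 the calls of Runx1 (adjusted p = 0.0508), Cd48 (0.0572), Meis1 (0.0601) and Fli1 (0.0766) were lost, and without MPP mutant 3 those of Meis1 (adjusted p = 0.0618), Fli1 (0.0715) and Cd48 (0.0823).

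Of the 7 other surface proteins tested, 5 fell and 2 were not called. Emcn encodes endomucin, a sialomucin shared by endothelium and stem cells, and stood at 13.1, 10.1 and 8.98 CPM in mutants 1 to 3, against 24.0, 17.9 and 20.3 CPM in controls 1 to 3 (log2 fold change -0.98, SE 0.179, adjusted p = 0.00162). Esam, a junction protein of endothelium that also marks stem cells, stood at 23.1, 17.3 and 17.9 CPM in mutants, against 32.5, 29.5 and 36.3 CPM in controls (-0.78, SE 0.148, adjusted p = 0.00206). Cd34 stood at 892, 713 and 715 CPM in mutants, against 1017, 1055 and 1071 CPM in controls (-0.46, SE 0.0971, adjusted p = 0.00376). In each of the 3 genes the mutants lay below the controls in every library. Neo1, the receptor neogenin, had only 5, 3 and 7 counts in mutants, against 15, 16 and 23 counts in controls (-1.72, SE 0.415, adjusted p = 0.00823). Tek, the TIE2 receptor of angiopoietins, stood at 17.0, 15.1 and 16.7 CPM in mutants, against 20.98, 20.4 and 20.99 CPM in controls (-0.38, SE 0.128, adjusted p = 0.0383). The Tek call was lost without any 1 of the 6 MPP libraries (adjusted p between 0.0501 and 0.148) and with DESeq2 (adjusted p = 0.0779), no filter on low counts (0.0776) or sex as a covariate (0.0589). Procr, the endothelial protein C receptor, averaged 13.2 ± 3.58 CPM in mutants and 13.2 ± 2.67 CPM in controls (adjusted p = 0.941), and Cd63 averaged 68.6 ± 7.54 CPM in mutants and 76.8 ± 7.07 CPM in controls (adjusted p = 0.211; SD, n = 3 each).

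None of the 3 secreted proteins was called in MPP. Angpt1, the ligand of the Tek receptor, averaged 149 ± 8.91 CPM in mutants and 157 ± 20.1 CPM in controls. Vwf, the platelet adhesion factor, averaged 7.09 ± 1.45 CPM in mutants and 6.42 ± 2.98 CPM in controls, and Mamdc2 averaged 11.1 ± 1.30 CPM in mutants and 9.45 ± 1.21 CPM in controls (SD, n = 3 each). Their adjusted p-values were 0.51, 0.776 and 0.361.

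Of the 8 tested genes of signalling, channels and enzymes, 2 rose and 3 fell. Socs2, a feedback inhibitor of cytokine receptors that signal through JAK and STAT proteins, had the largest positive fold of all members tested in MPP. Its levels were 59.6, 54.7 and 36.9 CPM in mutants 1 to 3, against 9.72, 12.8 and 19.2 CPM in controls 1 to 3 (log2 fold change 1.84, SE 0.237, adjusted p = 0.000183). The lowest mutant was well above the highest control. Ctnnal1, the catenin relative alpha-catulin, stood at 24.3, 34.4 and 28.1 CPM in mutants, against 20.1, 19.4 and 23.7 CPM in controls (0.43, SE 0.151, adjusted p = 0.0445). This call was lost under upper-quartile scaling (adjusted p = 0.0777) and without MPP mutant 2 (adjusted p = 0.2), mutant 3 (0.102), control 1 (0.0944) or control 2 (0.142).

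Hid1, a protein of the Golgi and secretory granules, stood at 3.50, 1.36 and 1.61 CPM in MPP mutants 1 to 3, against 6.25, 6.40 and 7.44 CPM in MPP controls 1 to 3 (log2 fold change -1.66, SE 0.315, adjusted p = 0.00208). Tbxas1, the thromboxane synthase of platelets and macrophages, stood at 12.2, 9.71 and 9.91 CPM in mutants, against 18.4, 14.7 and 18.7 CPM in controls (-0.73, SE 0.163, adjusted p = 0.00546). Txnip stood at 301, 255 and 262 CPM in mutants, against 373, 357 and 357 CPM in controls (-0.43, SE 0.0907, adjusted p = 0.00369). In all 3 genes each mutant lay below each control. Not called were Fgd5, an exchange factor for the GTPase CDC42 (44.6 ± 9.48 CPM in mutants and 52.6 ± 5.69 CPM in controls), the cation channel gene Trpc6 (2.45 ± 0.675 and 3.21 ± 0.443 CPM) and Pdzk1ip1, a small membrane protein that binds PDZ domains (5.07 ± 0.733 and 5.85 ± 1.31 CPM; SD, n = 3 each), with adjusted p-values of 0.198, 0.254 and 0.448.

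**Figure D2:**
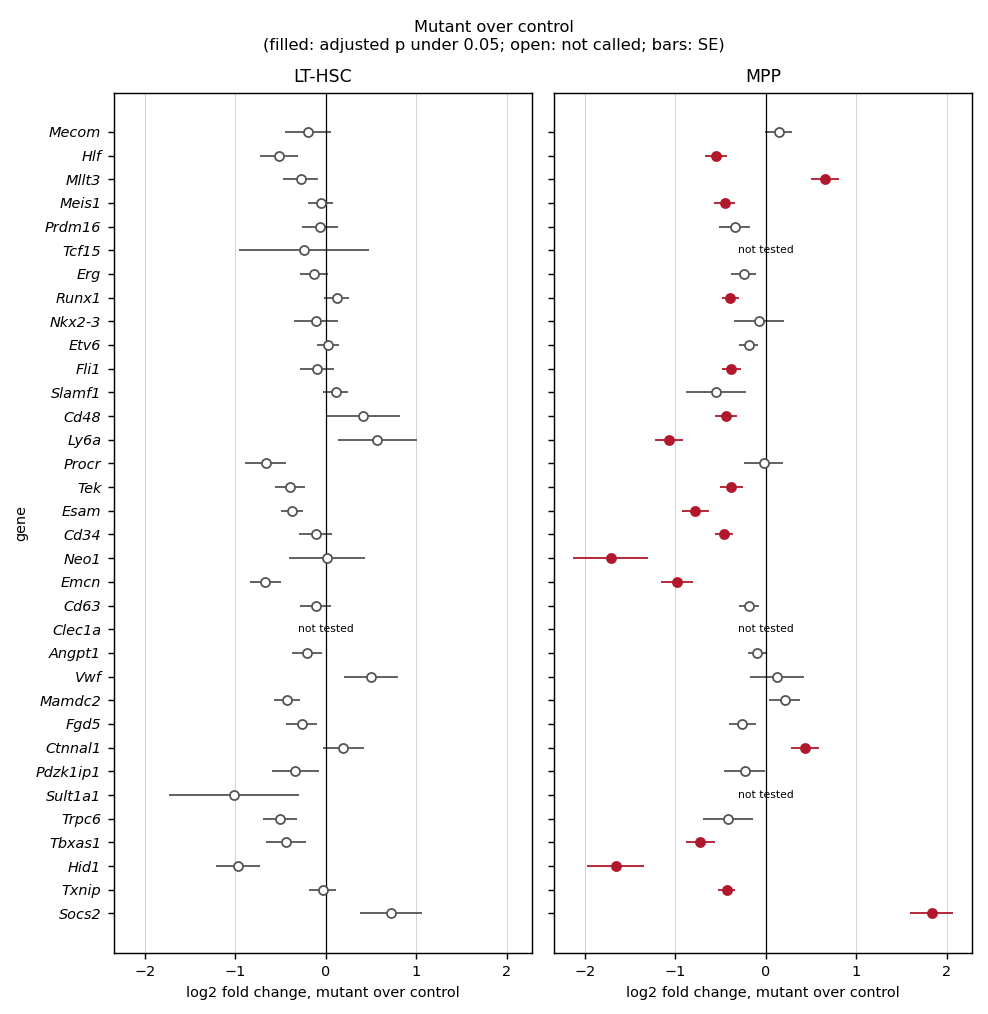
Log2 fold change of mutant over control for each gene (rows), in LT-HSC (left) and MPP (right), with bars for the standard error. In MPP 14 filled points lie below 0 and 3 above it, whereas in LT-HSC all 33 tested genes are open, with 24 below 0, both panels sharing 1 horizontal scale.

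In these genes both the MPP mutants and the MPP controls were spread. The median over the 31 tested genes of log2(CPM + 1) minus the control mean was -0.16 in mutant 1, -0.42 in mutant 2 and -0.37 in mutant 3. In controls 1 to 3 it was -0.04, -0.07 and 0.11. Mutant 2 was the lowest of the 6 MPP libraries in 15 genes, mutant 3 in 8 and mutant 1 in 0, and control 3 was the highest in 15. With only the control that carries the Cre transgene, which leaves 1 MPP control whose spread is assumed to be that of the mutants, 9 genes were lower and 1, Socs2, was higher. Of the 14 lower genes above, 8 were called in that setting (Hlf, Ly6a, Esam, Cd34, Neo1, Emcn, Tbxas1 and Hid1).

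Markers of several other cell types moved with the genotype in MPP, where 18.5% of all genes were called lower and 16.5% higher. All 13 erythroid genes tested rose, and their summed level was 3871 to 5830 CPM in mutants, against 1359 to 1566 CPM in controls, with no gene at 0. All 8 lymphoid genes tested fell (summed level 433 to 587 CPM in mutants, against 1093 to 1207 CPM in controls). Of 14 macrophage genes 13 fell, and their sum was 343 to 481 CPM in mutants, against 1480 to 2135 CPM in controls. Of 11 endothelial genes tested 5 fell and 2 rose, with a sum of 332 to 444 CPM in mutants, against 515 to 544 CPM in controls, and Cldn5 was at 0 in the mutants. The endothelial genes that fell were Cdh5, Stab2, Sox18, Tie1 and Egfl7, named like the next after their values were seen. The junction gene Cdh5 stood at 1.38, 0.272 and 0.339 CPM in mutants 1 to 3, against 7.10, 5.65 and 4.13 CPM in controls 1 to 3 (log2 fold change -3.11, adjusted p = 0.000426). The 2 that rose were Lyve1, a hyaluronan receptor of lymphatic and liver endothelium, and the scavenger receptor gene Stab1. Lyve1 stood at 11.41, 3.72 and 12.46 CPM in mutants, against 0.694, 0.498 and 0 CPM in controls (4.45, adjusted p = 0.000308), with no overlap. Stab1 stood at 29.4, 10.16 and 23.3 CPM in mutants, against 7.94, 10.63 and 9.01 CPM in controls (1.17, adjusted p = 0.0136), and its mutant 2 lay within the controls. Hepatoblast genes fell in 5 of 13 (38.5%) and megakaryocyte genes in 3 of 10 (30%), with none higher. Of 4 mast cell genes 1 rose and 1 fell (25% each). The megakaryocyte and mast cell shares rest on few genes and are nearer to those of all genes. The part that these cells have in the lower levels of Emcn, Esam, Tek, Tbxas1 and Cd48 was not tested.

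The second comparison asked the same of LT-HSC. None of the 33 members tested passed (0 called), among 12847 genes of which 0.42% were called by the same edgeR test (0.257% higher and 0.163% lower), and 8 members had an unadjusted p under 0.05, against 9.5% of all genes. DESeq2 called 2 members lower, Hid1 (adjusted p = 0.0111) and Emcn (adjusted p = 0.0469), and 2.02% of all genes in either direction. Fold changes were below 0 for 24 of the 33 genes, with a median log2 fold change of -0.13, against 0.03 over all genes tested. In 8 genes the mutant libraries all lay below the control libraries, which is 24.2% of the members tested, against 9.58% of all genes, and in 0 genes all above (6.89% of all genes).

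The 4 genes with the smallest p in LT-HSC did not pass. Hid1 stood at 57.3, 28.8 and 34.7 CPM in LT-HSC mutants 1 to 3, against 92.4, 79.3 and 69.9 CPM in LT-HSC controls 1 to 3 (log2 fold change -0.97, SE 0.245, adjusted p = 0.24). Emcn stood at 25.4, 23.0 and 17.99 CPM in mutants, against 32.9, 37.1 and 38.1 CPM in controls (-0.67, SE 0.171, adjusted p = 0.249). Mamdc2 stood at 64.8, 48.0 and 51.0 CPM in mutants, against 70.8, 82.5 and 72.6 CPM in controls (-0.43, SE 0.141, adjusted p = 0.396). In all of these the groups were apart, mutant 1 being nearest to the controls. Esam stood at 227, 178 and 166 CPM in mutants, against 259, 243 and 257 CPM in controls (-0.37, SE 0.123, adjusted p = 0.399). The other genes whose groups did not overlap were Procr (89.3 ± 33.5 CPM in mutants and 144 ± 13.9 CPM in controls), Trpc6 (51.0 ± 13.46 and 74.1 ± 7.67 CPM), Hlf (258 ± 80.9 and 375.9 ± 11.75 CPM) and Tek (94.0 ± 20.2 and 126.8 ± 8.14 CPM; SD, n = 3 each), chosen for this after their values were seen.

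The transcription factors of LT-HSC had folds between -0.51 for Hlf and 0.12 for Runx1 on the log2 scale. Meis1 averaged 322 ± 48.2 CPM in mutants and 342 ± 42.7 CPM in controls, Mecom 207 ± 80.3 and 243 ± 43.3 CPM, Mllt3 201 ± 58.4 and 249 ± 26.8 CPM, Prdm16 81.1 ± 24.8 and 86.7 ± 2.04 CPM, and Fli1 217 ± 54.5 and 238 ± 22.9 CPM (SD, n = 3 each). Runx1 averaged 113 ± 19.6 CPM in mutants and 106 ± 5.78 CPM in controls, Erg 43.5 ± 8.03 and 48.7 ± 3.88 CPM, Etv6 264 ± 43.5 and 266 ± 11.74 CPM, and Nkx2-3 33.98 ± 11.93 and 37.4 ± 2.37 CPM (SD, n = 3 each). For each of these genes, from Meis1 to Nkx2-3, the mutant SD was larger than the difference of the means.

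Among the genes of sort antigens, Slamf1 stood at 41.6, 39.3 and 34.9 CPM in LT-HSC mutants 1 to 3, against 38.2, 34.7 and 37.3 CPM in LT-HSC controls 1 to 3 (log2 fold change 0.11, SE 0.135, adjusted p = 0.847). Ly6a stood at 47.2, 93.6 and 24.3 CPM in mutants, against 43.6, 37.9 and 33.2 CPM in controls (0.57, SE 0.434, adjusted p = 0.733). Cd48 stood at 10.6, 30.4 and 14.97 CPM in mutants, against 10.8, 17.0 and 15.5 CPM in controls (0.42, SE 0.404, adjusted p = 0.802). Mutant 2 alone was high in Ly6a and Cd48, and without it both folds were below 0 (-0.10 and -0.17).

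Of the remaining genes in LT-HSC, Socs2 stood at 147.7, 48.0 and 94.2 CPM in mutants 1 to 3, against 58.5, 70.0 and 50.7 CPM in controls 1 to 3 (log2 fold change 0.72, SE 0.344, adjusted p = 0.57). Mutant 2 lay below all 3 controls and mutants 1 and 3 above them. Vwf stood at 335, 165 and 191 CPM in mutants, against 225, 147 and 124 CPM in controls (0.51, SE 0.299, adjusted p = 0.65). Pdzk1ip1 averaged 106 ± 45.5 CPM in mutants and 137 ± 4.59 CPM in controls, Tbxas1 102 ± 35.6 and 141 ± 6.48 CPM, Fgd5 114 ± 28.8 and 139.6 ± 8.56 CPM, Ctnnal1 201 ± 70.0 and 179 ± 27.0 CPM, and Angpt1 277 ± 51.8 and 327 ± 44.9 CPM (SD, n = 3 each). Sult1a1 (-1.01), Tcf15 (-0.24), Neo1 (0.02), Txnip (-0.03), Cd34 (-0.11) and Cd63 (-0.11) make up the rest, as log2 fold changes that were not called.

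The spread among the LT-HSC mutants was large. The median over the 33 tested genes of log2(CPM + 1) minus the control mean was 0.04 in mutant 1, -0.42 in mutant 2 and -0.41 in mutant 3, against -0.04 to 0.04 in the controls. Mutant 2 was the lowest of the 6 LT-HSC libraries in 16 genes, mutant 3 in 14 and mutant 1 in 1, and mutant 1 was the highest in 12. Without mutant 1 the median log2 fold change was -0.30, with 27 of 33 genes below 0 and still 0 called. Mutants 2 and 3 also differed from each other in markers of other cells. Mutant 2 held macrophage genes at a sum of 1367 CPM (573 and 590 CPM in mutants 1 and 3, and 1208 to 1544 CPM in the controls). Mutant 3 held erythroid genes at 4463 CPM (2142 and 2328 CPM in mutants 1 and 2, and 2245 to 2297 CPM in the controls). Hepatoblast genes summed to 98.7 to 475 CPM in mutants, against 551 to 1797 CPM in controls, and all 14 had folds below 0, with 0 called. Megakaryocyte genes summed to 548 to 968 CPM in mutants, against 887 to 1092 CPM in controls, with 1 of 12 called lower. Of the other marker lists in LT-HSC, 1 of 13 erythroid genes rose and 1 of 5 lymphoid genes fell, against 0.257% and 0.163% of all genes. Of 14 macrophage, 11 endothelial, 2 mast cell and 6 LSK genes 0 were called. The part of these cells in the members' levels was not tested.

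**Figure D3:**
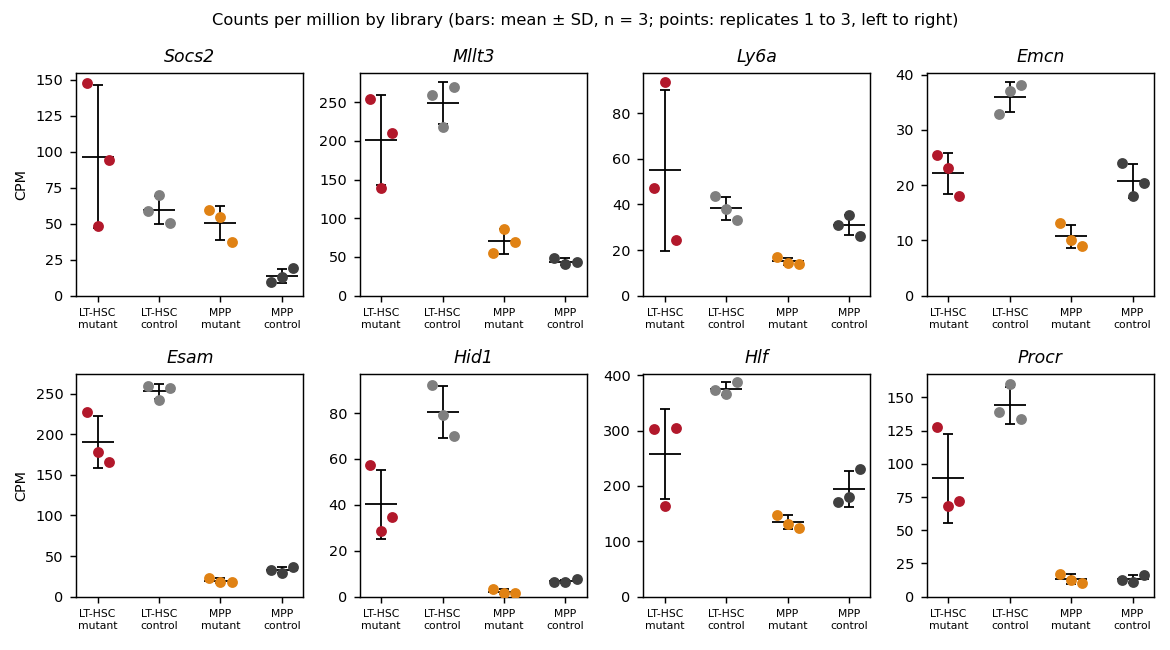
CPM in each library (points, replicates 1 to 3 from left to right) with mean and SD (n = 3) for 8 genes, each panel on its own linear axis from 0. Socs2 and Mllt3 are higher in MPP mutants than in MPP controls, Ly6a, Emcn, Esam, Hid1 and Hlf are lower there, and the 3 LT-HSC mutants are widely spread in Socs2, Ly6a and Procr.

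Whether the effect of the genotype differed between the cell types was tested as an interaction over all 12 libraries, as the effect in LT-HSC minus the effect in MPP. No member was called (0 of 33 by edgeR's quasi-likelihood test, against 0.377% of all 13249 genes, 0.226% higher and 0.151% lower), and 6 had an unadjusted p under 0.05, against 12.4% of all genes. DESeq2 called 1, Ly6a (adjusted p = 0.0422), and 2.56% of all genes. Without LT-HSC mutant 3, edgeR called Ly6a (adjusted p = 0.00581) and 6.55% of all genes. The smallest p belonged to Mllt3, with a difference of -0.99 on the log2 scale (SE 0.292, adjusted p = 0.177), then Mamdc2 (-0.70, SE 0.212, adjusted p = 0.189) and Ly6a (1.56, SE 0.503, adjusted p = 0.212). The calls in MPP and their absence in LT-HSC are therefore not shown to differ. The difference for Slamf1 was 0.60 (SE 0.284, adjusted p = 0.422) and for Cd48 0.78 (SE 0.416, adjusted p = 0.497). These comparisons share libraries, and the LT-HSC samples held 500 to 1000 cells, against 20000 in the MPP samples.

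The next comparison set LT-HSC against MPP within each genotype, to describe how the levels of the identity genes differed between the sorted populations. In mutants, 27 of 31 tested members were higher and 2 lower in LT-HSC than in MPP by edgeR's quasi-likelihood test. Their shares were 87.1% higher and 6.45% lower, against 14.9% and 7.98% of all 12452 genes tested in mutants (22.8% in either direction). In controls, 26 of 32 were higher and 2 lower, which is 81.2% and 6.25%, against 20.5% and 18% of all 12834 genes tested in controls (38.5% in either direction). Every LT-HSC library was above every MPP library for 27 members and below for 2 in mutants, against 21.9% and 25.6% of all genes, and likewise for 27 and 2 members in controls, against 26.5% and 24.6%. The median log2 fold change was 1.93 in mutants and 1.92 in controls. The members were picked as genes that tell stem cells from progenitors, with earlier results of these data known. High shares in LT-HSC were thus set in part by that choice and are no test of it. Slamf1 and Cd48 were set apart by the gates themselves, so their differences check the labels.

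That check held. Slamf1 averaged 38.6 ± 3.41 CPM in LT-HSC mutants and 1.24 ± 0.139 CPM in MPP mutants, a log2 fold change of 4.99 (SE 0.183), and 36.7 ± 1.80 CPM in LT-HSC controls and 1.79 ± 0.546 CPM in MPP controls, one of 4.35 (SE 0.215). Cd48 averaged 18.7 ± 10.4 CPM in LT-HSC mutants and 171 ± 21.9 CPM in MPP mutants (-3.14, SE 0.383), and 14.5 ± 3.23 CPM in LT-HSC controls and 228 ± 28.0 CPM in MPP controls (-3.98, SE 0.169; SD, n = 3 each). Cd34 was the other gene lower in LT-HSC (-0.92, SE 0.193, adjusted p = 0.0177 in mutants, and -1.25, SE 0.081, adjusted p = 4.51e-06 in controls). The Cd34 call in mutants was lost without LT-HSC mutant 1 or any 1 of the 3 MPP mutants (adjusted p between 0.0588 and 0.0672), and with sex as a covariate (0.0593).

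Genes with a wide gap between LT-HSC and MPP were of several roles. Vwf averaged 230.4 ± 91.1 CPM in LT-HSC mutants and 7.09 ± 1.45 CPM in MPP mutants (log2 fold change 5.06, SE 0.318, adjusted p = 0.000652), and 165 ± 53.2 CPM in LT-HSC controls and 6.42 ± 2.98 CPM in MPP controls (4.70, SE 0.32, adjusted p = 6.21e-06). Pdzk1ip1 differed by 4.43 (SE 0.338) in mutants and 4.55 (SE 0.15) in controls, and Trpc6 by 4.42 (SE 0.277) and 4.53 (SE 0.163) on the same scale. Hid1 differed by 4.26 (SE 0.426) in mutants and 3.60 (SE 0.158) in controls. Esam had folds of 3.34 (SE 0.171) in mutants and 2.95 (SE 0.104) in controls, Tbxas1 of 3.31 (SE 0.276) and 3.04 (SE 0.121), Procr of 2.79 (SE 0.302) and 3.45 (SE 0.153), Ctnnal1 of 2.84 (SE 0.248) and 3.10 (SE 0.14), and Tek of 2.58 (SE 0.184) and 2.61 (SE 0.101). In all these genes every LT-HSC library was above every MPP library of its genotype. Several lists of markers of other cells differed too. Megakaryocyte genes were higher in LT-HSC in 10 of 12 tested in controls and 9 of 11 in mutants. Hepatoblast genes were higher in 14 of 14 and 1 of 12. Endothelial genes were higher in 6 of 11 and 5 of 11, with 1 lower in mutants. Lymphoid genes were lower in 8 of 8 and 5 of 7. Of all genes, 20.5% and 14.9% were higher and 18% and 7.98% lower. The part of these cells in the gaps was not tested.

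The values by library show the same gap. Pdzk1ip1 had 154, 63.9 and 100.2 CPM in LT-HSC mutants 1 to 3 and 5.34, 5.63 and 4.24 CPM in MPP mutants 1 to 3, and among controls 141, 132 and 137 CPM in LT-HSC and 4.63, 7.23 and 5.70 CPM in MPP. Trpc6 measured 65.8, 47.8 and 39.5 CPM in LT-HSC mutants 1 to 3 and 3.22, 1.996 and 2.12 CPM in MPP mutants 1 to 3, and among controls 68.9, 82.9 and 70.5 CPM in LT-HSC and 3.01, 2.91 and 3.72 CPM in MPP. Vwf had 335, 165 and 191 CPM in LT-HSC mutants 1 to 3 and 8.19, 5.44 and 7.63 CPM in MPP mutants 1 to 3, and among controls 225, 147 and 124 CPM in LT-HSC and 4.01, 5.48 and 9.75 CPM in MPP. In Pdzk1ip1 and Trpc6 the LT-HSC mutants spread more widely than the LT-HSC controls, and in Vwf both LT-HSC groups were spread. Tbxas1 had 136, 65.0 and 106 CPM in LT-HSC mutants 1 to 3 and 12.2, 9.71 and 9.91 CPM in MPP mutants 1 to 3, and among controls 141, 148 and 135 CPM in LT-HSC and 18.4, 14.7 and 18.7 CPM in MPP. Ctnnal1 measured 279.8, 147 and 176 CPM in LT-HSC mutants 1 to 3 and 24.3, 34.4 and 28.1 CPM in MPP mutants 1 to 3, and among controls 208, 174 and 155 CPM in LT-HSC and 20.1, 19.4 and 23.7 CPM in MPP. Procr had 128, 68.1 and 71.8 CPM in LT-HSC mutants 1 to 3 and 17.0, 12.8 and 9.91 CPM in MPP mutants 1 to 3, and among controls 139, 160.0 and 134 CPM in LT-HSC and 12.4, 11.0 and 16.2 CPM in MPP. LT-HSC mutant 2 was the lowest LT-HSC library in each of these 3 genes. Mamdc2 had 64.8, 48.0 and 51.0 CPM in LT-HSC mutants 1 to 3 and 12.6, 10.6 and 10.2 CPM in MPP mutants 1 to 3, and among controls 70.8, 82.5 and 72.6 CPM in LT-HSC and 10.03, 8.06 and 10.2 CPM in MPP. Tek measured 105, 106 and 70.6 CPM in LT-HSC mutants 1 to 3 and 17.0, 15.1 and 16.7 CPM in MPP mutants 1 to 3, and among controls 135, 119 and 127 CPM in LT-HSC and 20.98, 20.4 and 20.995 CPM in MPP. Mllt3 had 255, 139 and 209.6 CPM in LT-HSC mutants 1 to 3 and 54.6, 86.6 and 69.9 CPM in MPP mutants 1 to 3, and among controls 259, 218 and 269 CPM in LT-HSC and 48.4, 40.4 and 42.9 CPM in MPP. Among these 9 genes, Mllt3 had the smallest ratio of its lowest LT-HSC mutant to its highest MPP mutant.

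Among the transcription factors the gap ran from wide to narrow. Mecom was higher in LT-HSC by 2.67 (SE 0.267) in mutants and 3.03 (SE 0.15) in controls on the log2 scale, Nkx2-3 by 2.32 (SE 0.326) and 2.36 (SE 0.225), and Prdm16 by 1.99 (SE 0.228) and 1.73 (SE 0.161). Mllt3 was higher by 1.56 (SE 0.239) in mutants and 2.51 (SE 0.115) in controls, and Meis1 by 1.55 (SE 0.149) and 1.18 (SE 0.11). Narrower gaps were seen in Hlf (0.99 in mutants and 0.96 in controls), Erg (0.82 and 0.73) and Fli1 (0.80 and 0.54), all called in both genotypes. In mutants these calls were lost with sex as a covariate and without LT-HSC mutant 1 or MPP mutant 2 or 3, and that of Hlf also without MPP mutant 1, with adjusted p between 0.0593 and 0.106 for Hlf, 0.0535 and 0.0833 for Erg, and 0.0772 and 0.11 for Fli1. The Hlf fold with sex as a covariate was 0.963, near the 0.956 without MPP mutant 2. These settings are not shown to be separate checks. With only Cre-positive controls, the calls of Erg (adjusted p = 0.156) and Fli1 (0.0537) were lost in controls. Etv6 was called in neither genotype (0.37, adjusted p = 0.0955 in mutants, and 0.18, adjusted p = 0.105 in controls). Runx1 stood at 113 ± 19.6 CPM in LT-HSC mutants and 82.2 ± 5.55 CPM in MPP mutants (0.50, adjusted p = 0.0444), and at 106 ± 5.78 CPM in LT-HSC controls and 106 ± 6.99 CPM in MPP controls (0.01, adjusted p = 0.929; SD, n = 3 each). The Runx1 call in mutants was lost without LT-HSC mutant 1 or any 1 of the 3 MPP mutants (adjusted p between 0.0997 and 0.172), with sex as a covariate (0.168) and with no filter on low counts (0.051).

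Ly6a and Socs2 were called in 1 genotype each. Ly6a was called higher in LT-HSC than in MPP in mutants (log2 fold change 1.93, SE 0.455, adjusted p = 0.0254) and not in controls (0.32, SE 0.152, adjusted p = 0.124). Its call in mutants was lost without LT-HSC mutant 1 (adjusted p = 0.0629) or without MPP mutant 1, 2 or 3 (0.0692, 0.109 and 0.104). It was lost with sex as a covariate as well (0.108). Socs2 was not called in mutants (0.98, SE 0.374, adjusted p = 0.0996), where DESeq2 called it, and was higher in LT-HSC in controls (2.11, SE 0.231, adjusted p = 0.000106). Whether these gaps differ between genotypes is the interaction given above, in which neither gene passed. The remaining called genes, Neo1, Mamdc2, Fgd5, Cd63, Angpt1, Emcn and Txnip, were higher in LT-HSC in both genotypes, with log2 fold changes between 0.94 and 5.11 in mutants and between 0.68 and 3.40 in controls. In mutants the Emcn call was lost with sex as a covariate (adjusted p = 0.0748) and without MPP mutant 2 (0.0754) or mutant 3 (0.072), and that of Fgd5 without MPP mutant 3 (adjusted p = 0.0528). With only Cre-positive controls the Emcn call was lost in controls (adjusted p = 0.0787). Sult1a1 was tested in controls alone and not called (1.60, adjusted p = 0.0547), and Tcf15 and Clec1a were tested in neither genotype.

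**Figure D4:**
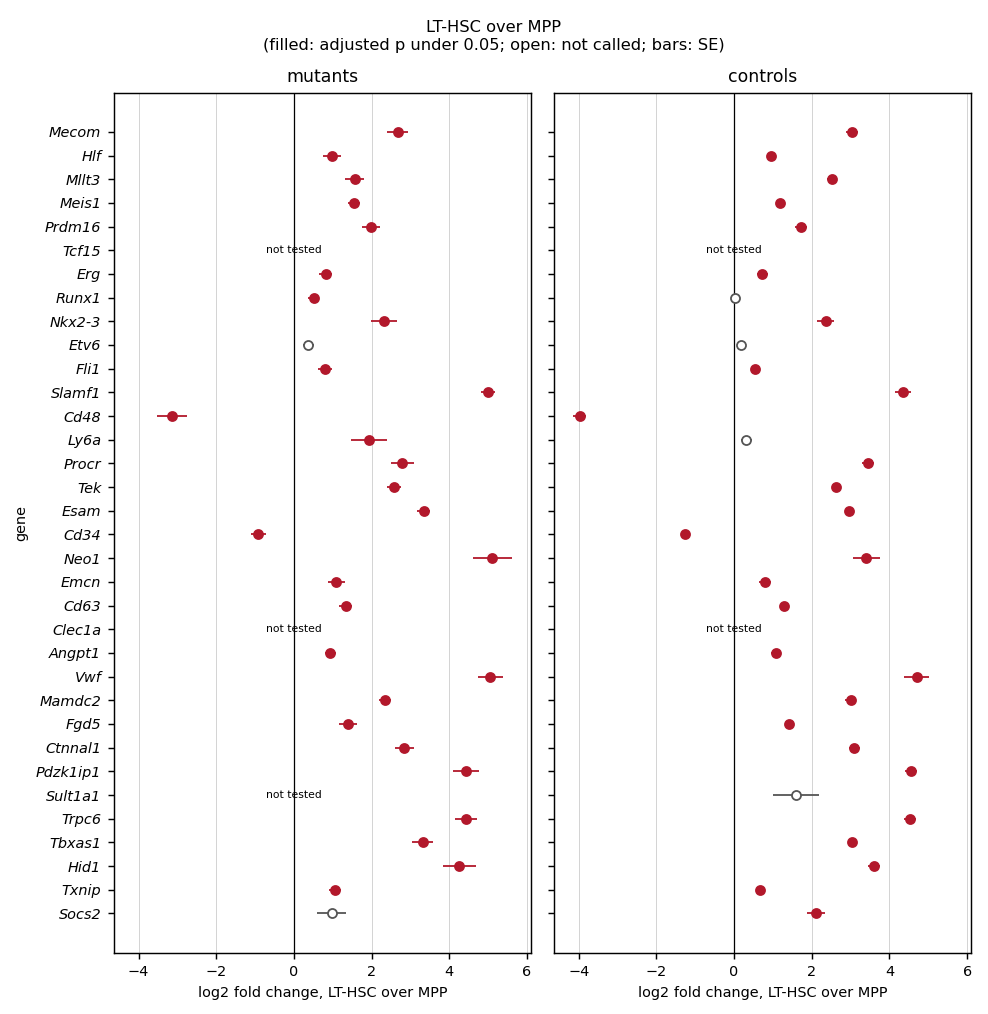
Log2 fold change of LT-HSC over MPP for each gene (rows), in mutants (left) and controls (right), with bars for the standard error. Filled points number 29 in mutants and 28 in controls, and Cd48 and Cd34 are the genes below 0 in both panels.

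Further stem cell genes outside the set were read for comparison, in a list of 21 genes of the kind shared by single stem cells from different sorting strategies (MolO-type, for molecular overlap) and a list of 22 other stem cell regulators. These lists too were chosen with earlier results of these data known. In MPP, 9 of the 19 tested MolO-type genes fell (47.4%, against 18.5% of all genes) and 1 rose (5.26%, against 16.5%). By smallest p the lower genes were led by Ifitm1, an interferon-induced membrane protein (79.8 ± 20.8 CPM in mutants and 172 ± 8.23 CPM in controls, log2 fold change -1.13, adjusted p = 0.000242), the lysosomal protease gene Ctsf (2.83 ± 0.805 and 8.76 ± 1.05 CPM, -1.65), the endothelial factor gene Sox18 (3.28 ± 0.489 and 10.4 ± 3.13 CPM, -1.69) and the desaturase gene Fads3 (10.4 ± 1.19 and 19.4 ± 1.06 CPM, -0.92; SD, n = 3 each). Cldn10, a tight junction gene, was the 1 that rose in MPP (1.40 ± 0.286 CPM in mutants and 0.322 ± 0.137 CPM in controls, adjusted p = 0.00399). It was also the only gene of either list called in LT-HSC, at 9.32 ± 2.72 CPM in mutants and 1.22 ± 0.412 CPM in controls (log2 fold change 2.95, SE 0.38, adjusted p = 0.0315; SD, n = 3 each).

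Of the 21 tested regulators in MPP, 10 fell (47.6%, against 18.5% of all genes) and 2 rose (9.52%, against 16.5%). Hoxa9, a homeobox partner of Meis1, averaged 51.7 ± 8.05 CPM in mutants and 97.2 ± 14.0 CPM in controls (log2 fold change -0.93, SE 0.135, adjusted p = 0.000378). Cd27, a receptor of the TNF receptor family, fell by 0.86 and Gpr56, an adhesion receptor, by 0.59 on the log2 scale. The 2 that rose were Tal1, a factor of both stem cells and red cells (45.4 ± 7.30 CPM in mutants and 27.1 ± 2.09 CPM in controls, 0.72, adjusted p = 0.00199), and Gfi1b, a repressor of red cells and platelets (145 ± 30.4 and 94.9 ± 13.6 CPM, 0.58, adjusted p = 0.012; SD, n = 3 each). Gata2, Lmo2 and Lyl1, which with Tal1, Runx1, Erg and Fli1 form a set of factors that bind together in blood stem cells, were not called in MPP (0.31, 0.08 and 0.12, with adjusted p-values of 0.146, 0.632 and 0.413). In LT-HSC, 0 of the 22 regulators were called, against 0.42% of all genes. An unadjusted p under 0.05 was found in 4 of them, against 9.5% of all genes.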

How the data were processed

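RNA from sorted LT-HSC and MPP of 4 groups was made into libraries from 10 ng of input, per the labels' protocols. STAR and RSEM were used on mm10, per the submitters' processing notes. Tool versions were not given in the sources used here. In each sample's table, the authors deposited RSEM expected counts and TPM per gene, per the file headers. Between 7.13% and 7.76% of the expected counts were fractional. Totals lay between 10119416 and 14113198, and intervals of counting error were not needed. Replicates of a group always differed by more than counting error (5.01 or more as chi-square over genes).

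Expected counts were rounded and tested with edgeR 4.0.16 (R 4.3.3): TMM scaling, filterByExpr by group (minimum count 10, minimum total 15), quasi-likelihood test, Benjamini-Hochberg adjustment over all genes tested, threshold 0.05. Each comparison used its own 6 libraries, and the interaction all 12. The SE is the log2 fold change divided by the square root of the F statistic. CPM were scaled by TMM over all 12 libraries. The fits were tested on simulated data. Alternatives were RLE and upper-quartile scaling, no filter, DESeq2 1.42.0, sex (from Xist and Ddx3y) as a covariate, only Cre-positive controls, a joint fit, a replicate block and leaving out each library. Same-numbered LT-HSC mutants and controls shared the direction of their deviations (correlations over 13249 genes of 0.108, 0.148 and 0.175), and each correlated best with its own number. This pairing comes from the title numbers and the data, since the meaning of the numbers is not in the labels. Deviations from means of 3 are not independent.

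All 34 members are accounted for. Named with library values were called members (up to 10 in each direction by smallest p), otherwise the 4 with the smallest p, the sort antigens, and up to 4 called genes of each stem cell list. The values of 1 such gene are not reported here. The other lists (LSK, hepatoblast, macrophage, endothelial, megakaryocyte, erythroid, mast cell and lymphoid markers) were read as counts and sums. The members and lists were chosen with earlier results of these data known. Loci come from GENCODE M21 on GRCm38, the build also called mm10.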

Additional observations from a re-analysis of the deposited data

How the results depend on the processing

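No member was called in LT-HSC mutants against controls or in the interaction under the settings run, except by DESeq2 (2 lower in LT-HSC, 1 higher in the interaction) and without LT-HSC mutant 3 (range 0 to 1 higher in the interaction). In LT-HSC mutants against controls, using only Cre-positive controls is the same fit as leaving out control 1. The median log2 fold of members was -0.169 both with sex as a covariate and without control 2, so these too are not shown to be separate checks. In MPP the counts were 2 to 3 higher and 10 to 16 lower when 1 library was left out, 1 and 9 with only the Cre-positive control, and 7 lower in the joint fit, where Hlf, Runx1, Fli1, Cd48, Ly6a, Tek and Cd34 lost their calls (adjusted p between 0.0508 and 0.315). Against MPP mutants, LT-HSC mutants had 20 to 30 members higher and 1 to 2 lower when 1 library was left out, and 1 lower with sex as a covariate. There the folds with sex as a covariate were close to those without MPP mutant 2 (Hlf 0.963 and 0.956, Ly6a 1.886 and 1.879). These settings are thus not shown to be separate checks. Controls gave 26 to 27 higher and 2 lower when 1 library was left out. With the title number as a replicate block the counts of higher and lower members were 0 and 0 (LT-HSC), 2 and 13 (MPP, where Ctnnal1 and Tek lost their calls), 28 and 2 (mutants, LT-HSC over MPP), 26 and 2 (controls) and 0 and 0 (interaction). Same-numbered MPP libraries did not deviate together (r across genes -0.0247, -0.212 and -0.177), so there the number is not shown to pair samples. When 1 library was left out, the LT-HSC log2 fold ranged from -0.1019 to 0.9308 for Ly6a and from -0.1686 to 0.699 for Cd48, below 0 without LT-HSC mutant 2. Across all genes in MPP, upper-quartile scaling gave 1627 higher and 2719 lower, against 2039 and 2298 with TMM, and 14 members were called lower with either scaling. The causes of these changes were not tested, and leaving out a library also lowers the number of samples.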

Other observations

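Some stem cell genes outside the set stood apart in level. Hoxb5, a homeobox gene used to mark stem cells, stood at 14.6, 7.38 and 9.07 CPM in LT-HSC mutants 1 to 3 and at 0.276, 0.1815 and 0.593 CPM in MPP mutants 1 to 3. In controls 1 to 3 it stood at 16.1, 13.48 and 13.7 CPM in LT-HSC and at 0.694, 0.665 and 0.827 CPM in MPP. Its log2 fold change of LT-HSC over MPP was 4.87 (SE 0.475, adjusted p = 0.00215) in mutants and 4.30 (SE 0.25, adjusted p = 2.56e-06) in controls by edgeR. Socs2 in MPP mutants (36.9 to 59.6 CPM) overlapped its range in LT-HSC controls (50.7 to 70.0 CPM), a comparison of different cell types that was not tested.

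Mast cell genes summed to 31.1 to 36.9 CPM in MPP mutants, against 27.7 to 34.4 CPM in MPP controls. Of the 6 LSK markers, 4 of which (Ly6a, Cd34, Slamf1 and Cd48) are also members of the set, 4 fell in MPP mutants (66.7%, against 18.5% of all genes). Ptprc (CD45) fell in MPP mutants (log2 fold change -0.59, SE 0.122, adjusted p = 0.00334), and Kit was not called (-0.05, SE 0.0857, adjusted p = 0.685).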
